A study of Mus musculus with 4 samples.

Results

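The 4 genes of the interferon receptor chains, Ifngr1, Ifngr2, Ifnar1 and Ifnar2, and the gene of interferon beta, Ifnb1, were read from RNA-seq counts of cultured mouse macrophages. Their rows were picked out by symbol, and the set was named with earlier results of these data known. All 5 were found among the 18256 symbols listed for each library. Wild-type (WT) bone marrow cells had been grown into macrophages for 7 days with macrophage colony-stimulating factor (MCSF) at 20 ng/ml. Libraries were made from unstimulated macrophages kept in MCSF alone (M0, 2 libraries) and from macrophages given interferon-gamma (IFN-γ) at 20 ng/ml with bacterial lipopolysaccharide (LPS) at 100 ng/ml for 24 h from day 6 (M1, 2 libraries). Both groups share genotype, tissue, days in culture and the MCSF dose used for differentiation. The labels leave unsaid if the M1 medium still held MCSF and if the libraries of a group came from separate mice or cultures. The number, sex and age of the mice are not given in the sources used here. P-values therefore measure only the spread between these libraries, which may be technical.

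Interferons are secreted proteins that alert cells to infection. IFN-γ binds a receptor built from IFNGR1, the ligand-binding chain that carries the kinase JAK1, and IFNGR2, the chain that carries JAK2. Interferon beta and the interferon alphas bind a separate receptor built from IFNAR1, which carries TYK2, and IFNAR2, which carries JAK1, and signals through STAT2 and IRF9 among others. Macrophages carry both receptors, and LPS sensed by TLR4 is a known inducer of Ifnb1, whose transcription is known for an early and short-lived peak. The comparison asks how the receiving and sending sides of this system differ at the transcript level between stimulated and unstimulated cells.

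The sequences upstream of 3 of the genes are printed for the comparisons that follow. Ifnb1 is shown as the inducible ligand gene, Ifngr1 as the receptor gene that was lower in M1 and Ifngr2 as its partner that was higher. Each run holds the 250 bases before the RefSeq start (GRCm38.p6), 5′ to 3′ on the gene's own strand, and capitals mark the motif letters described after the sequences.
Ifnb1: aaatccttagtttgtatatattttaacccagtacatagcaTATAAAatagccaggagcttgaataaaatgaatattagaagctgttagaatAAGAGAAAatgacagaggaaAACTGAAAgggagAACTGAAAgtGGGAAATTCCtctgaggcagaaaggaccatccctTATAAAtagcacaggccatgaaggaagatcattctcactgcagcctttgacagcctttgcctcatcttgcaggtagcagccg
Ifngr1: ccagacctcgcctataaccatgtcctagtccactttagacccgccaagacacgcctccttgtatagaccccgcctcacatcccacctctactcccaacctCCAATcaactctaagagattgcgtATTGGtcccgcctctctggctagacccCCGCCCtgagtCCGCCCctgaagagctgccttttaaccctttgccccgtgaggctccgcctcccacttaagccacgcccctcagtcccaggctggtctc
Ifngr2: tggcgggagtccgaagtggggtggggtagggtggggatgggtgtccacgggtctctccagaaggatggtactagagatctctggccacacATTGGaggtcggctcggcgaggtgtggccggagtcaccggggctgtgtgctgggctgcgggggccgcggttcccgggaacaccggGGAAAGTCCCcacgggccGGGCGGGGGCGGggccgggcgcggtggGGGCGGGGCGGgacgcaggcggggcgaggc
The Ifnb1 window lies at chr4:88522795-88523044 on the minus strand, that of Ifngr1 at chr10:19591699-19591948 on the plus strand and that of Ifngr2 at chr16:91546809-91547058 on the plus strand. Motifs were searched on both strands as exact letters, and positions count back from -1, the base before the start. In Ifnb1, whose enhancer is known to bind interferon regulatory factors, NF-κB and ATF2 with Jun, the capitals mark the interferon regulatory factor core AANNGAAA at -159, -139 and -126. They also mark the NF-κB motif, GGGA and TTCC with any 2 bases between them, at -116 and the TATA motif TATAAA at -210 and -82. In Ifngr1 they mark the GC box GGGCGG at -99 and -88 and CCAAT at -150 and -126. In Ifngr2 they mark 4 GC boxes between -57 and -20, of which the last pair share a base, CCAAT at -160 and the NF-κB motif at -75. No marked motif overlaps a motif of another kind. Of 32851 promoter windows of the same length, 21.3% held AANNGAAA, 1.21% the NF-κB motif, 12.4% TATAAA, 32.7% GGGCGG and 33.8% CCAAT.

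The G and C content was 39.6% upstream of Ifnb1, 54.0% upstream of Ifnar2, 59.2% of Ifngr1, 65.6% of Ifnar1 and 74.0% of Ifngr2, with a median of 52.4% over all windows. A match is a run of letters and not a measured site.

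The libraries held 15921466 to 18987705 counts over genes. Levels are counts scaled to a library of fixed size (CPM), with TMM factors between libraries of 0.911 to 1.10, and 3 counts in a library correspond to 0.144 to 0.185 CPM. Macrophage markers were abundant in every library, with a summed level of 21030 to 23320 CPM in M0 and 28630 to 29080 CPM in M1 over 9 genes. The MCSF receptor gene Csf1r had 3401 ± 30.4 CPM in M0, against 3101 ± 239 CPM in M1 (mean ± SD of 2 libraries, here and below). Markers of T and NK cells, the main known sources of IFN-γ, were at or near 0: over 11 listed genes the summed level was 21.6 to 22.9 CPM in M0 and 4.92 to 5.23 CPM in M1, most of it Cd4, and Cd3g, Ncr1, Gzma and Prf1 had no count in any library. Beside the marker counts that follow, 24.2% of all tested genes were higher in M1 and 24.0% lower. Of 9 tested neutrophil markers, 7 were lower in M1 and 1 was higher, with a summed level of 243 to 255 CPM in M0 and 110.5 to 149.5 CPM in M1 over 10 genes. Over 8 stromal markers, 3 of them higher and 4 lower in M1, the sums were 695 to 717 CPM in M0 and 458 to 520 CPM in M1. Over 7 conventional dendritic cell markers, 1 of them higher and 3 lower, they were 166 to 187 CPM and 63.7 to 72.1 CPM. Over 6 listed B cell markers, of which 2 were tested and neither passed, they were 5.79 to 6.76 CPM and 1.91 to 4.80 CPM, and Ms4a1 had no count. The part of these other cells in the receptor values was not tested, and in bulk samples fewer cells of a type and less RNA per cell cannot be told apart.

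Within the IFN-γ receptor the chains moved in opposite directions. Ifngr1 was 2.29-fold lower in M1 than in M0, while Ifngr2, Ifnar1 and Ifnar2 were 2.07-, 2.17- and 1.82-fold higher. Differences between the groups were tested with edgeR (quasi-likelihood, Benjamini-Hochberg adjustment over 12966 genes). All 4 tested members passed at an adjusted p under 0.05, a call made for 48.2% of tested genes (24.2% higher and 24.0% lower in M1). All 4 had groups that did not overlap, as did 74.9% of tested genes. With scaling by library totals, the split over all genes is 2024 higher and 4776 lower in place of 3140 and 3109, and the members keep their directions and calls.

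Ifngr1, on chromosome 10 (19591949 to 19610229, GRCm38, plus strand), encodes the chain that binds IFN-γ. It had 4350 and 3783 counts in M0 replicates 1 and 2 and 1550 and 1481 in M1 replicates 1 and 2. These correspond to 209 and 219 CPM in M0 and to 95.4 and 91.1 CPM in M1. Both M1 libraries lay far below both M0 libraries, and the libraries of a group lay close together. The means were 214 ± 7.53 and 93.25 ± 3.04 CPM, a log2 fold change of -1.20 ± 0.0974 (SE; adjusted p = 1.78e-06, edgeR). Of the tested genes, 11.4% had a lower log2 fold change than Ifngr1.

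Ifngr2, on chromosome 16 (91547072 to 91565623, plus strand), encodes the chain that brings JAK2 to the complex. Its levels were 131 and 155 CPM in M0 and 295 and 295 CPM in M1, where both libraries happened to hold 4794 counts. The M0 libraries differed more from each other than the M1 libraries did, and the groups did not overlap. The means were 143 ± 16.7 and 295 ± 0.130 CPM, a log2 fold change of 1.05 ± 0.106 (SE; adjusted p = 1.1e-05, edgeR). Over the 12 alternative settings it ranged from 0.80 to 1.17 and stayed past the threshold.

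The chains of the type I interferon receptor both rose. Ifnar1, the TYK2-carrying chain on chromosome 16 (91485238 to 91507441, plus strand), stood at 179.6 and 178 CPM in M0 and at 362 and 414 CPM in M1. Here the M1 libraries differed more from each other than the M0 libraries, and both lay above both M0 libraries. The means were 179 ± 1.085 and 388 ± 36.9 CPM, a log2 fold change of 1.12 ± 0.1015 (SE; adjusted p = 4.4e-06, edgeR). Ifnar2, the JAK1-carrying chain on the same chromosome (91372783 to 91405589, plus strand), stood at 80.5 and 93.6 CPM in M0 and at 159 and 158 CPM in M1. Its groups were also apart, with means of 87.1 ± 9.29 and 159 ± 0.592 CPM and a log2 fold change of 0.87 ± 0.107 (SE; adjusted p = 5.54e-05, edgeR). Counts per gene do not separate the soluble from the membrane-bound forms that mouse Ifnar2 is known to make. The annotated gene Gm21970 shares 9.46% of the exon bases of Ifnar2 and 14.94% of those of its neighbour Il10rb on the same strand, and the exons of the other 4 members overlap no annotated gene.

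**Figure D1:**
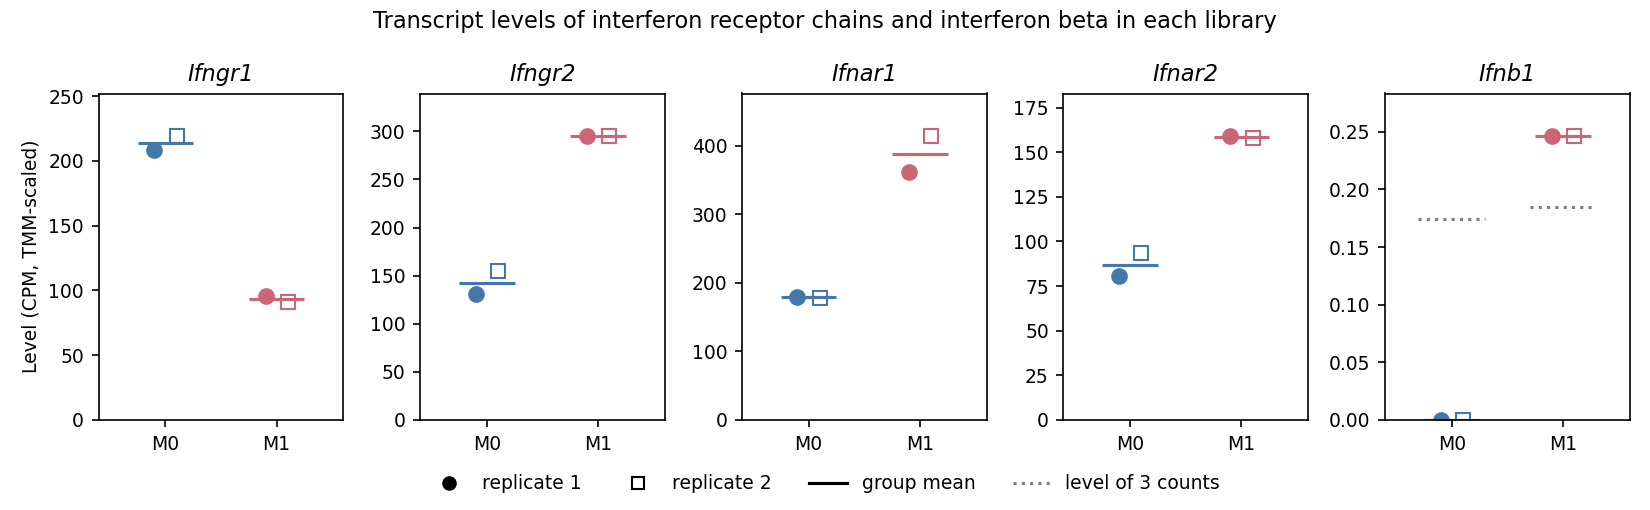
Level of each gene in each library, in TMM-scaled CPM on linear axes that start at 0 and differ between panels. Filled circles are replicate 1, open squares replicate 2, horizontal lines the mean of 2 libraries and dotted lines the level of 3 counts. Ifngr1 falls from 214 to 93.25 CPM, the other receptor chains rise, and Ifnb1 stands just above the level of 3 counts in M1.

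Divided by exon length, the order of the receptor transcripts was different in the groups. In M0 the level was 75.1 ± 2.64 CPM per kilobase for Ifngr1, 37.9 ± 4.44 for Ifngr2, 30.1 ± 0.183 for Ifnar1 and 26.15 ± 2.79 for Ifnar2. In M1 the level was 78.3 ± 0.0345 CPM per kilobase for Ifngr2, 65.3 ± 6.22 for Ifnar1, 47.65 ± 0.178 for Ifnar2 and 32.75 ± 1.07 for Ifngr1. By group mean Ifngr1 was thus the highest of the 4 in M0 and the lowest in M1. This order of means held with exon length, coding length and the length of RefSeq-linked transcripts. Other places in the order depend on the length used. With RefSeq-linked lengths Ifnar1 stood above Ifngr2 in both groups, and with coding lengths the M0 libraries of Ifngr1, at 146 to 153 CPM per kilobase, overlapped those of Ifngr2, at 131.5 to 155 CPM per kilobase.

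Because a ratio of 2 genes within a library needs no scaling between libraries, the chains of each receptor were also compared directly. Counts per kilobase of Ifngr1 over those of Ifngr2 came to 2.11 and 1.875 in M0 and to 0.428 and 0.409 in M1. The ligand-binding chain was the more abundant transcript in both M0 libraries and the less abundant in both M1 libraries. The log2 ratio was 0.99 ± 0.119 in M0 and -1.26 ± 0.0464 in M1 (SD, n = 2), and the change was -2.25, a 4.75-fold shift of the ratio. With coding length the ratio was 1.11 and 0.987 in M0 and 0.225 and 0.215 in M1, so that only the shift, not an excess in M0, holds whatever the length. An exact two-sided permutation test gives p = 0.333 for this shift, the smallest value that 2 libraries against 2 allow.

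The type I receptor chains changed their ratio little. Counts per kilobase of Ifnar1 over those of Ifnar2 came to 1.25 and 1.07 in M0 and to 1.28 and 1.47 in M1. The log2 ratio was 0.21 ± 0.163 in M0 and 0.45 ± 0.143 in M1 (SD, n = 2), and the change of 0.25 was 0.13 to 0.36 when a library was left out. On the log2 scale the nearest libraries of the groups, at 0.32 in M0 and 0.35 in M1, lay closer than the libraries within each group. The exact two-sided permutation test gave p = 0.333, the smallest possible value.

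**Figure D2:**
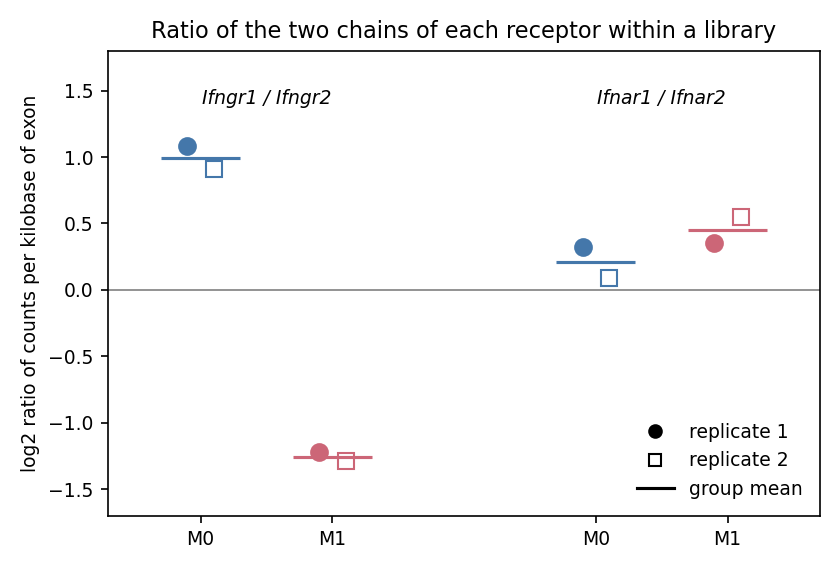
Log2 ratio of counts per kilobase of exon between the chains of the IFN-γ receptor (left) and of the type I interferon receptor (right), by library. Circles are replicate 1, squares replicate 2 and lines the group mean. The first ratio goes from 0.99 in M0 to -1.26 in M1, the second from 0.21 to 0.45.

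Ifnb1 was hardly detected at this time. The gene, on chromosome 4 (88522025 to 88522774, minus strand, a single transcript of 750 bases), had no count in M0 replicates 1 and 2 and 4 counts in each of M1 replicates 1 and 2. This is 0.246 CPM in both M1 libraries, with an exact Poisson 95% interval of 0.067 to 0.63 CPM that covers counting error only, and the same interval for a count of 0 reaches up to 0.177 and 0.214 CPM in M0. These intervals are for single libraries, and at this depth those of M0 and M1 libraries overlap. Over both libraries of a group, Ifnb1 had 0 counts in M0 and 8 in M1. The gene fell under the minimum count of 10 and was not tested. Without the low-count filter its adjusted p was 0.212 (edgeR).

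Low counts in these files are mostly even, which bears on these values. Of genes with 1 to 10 counts, 72.6% to 74.7% had an even number in each library, against 49.7% to 50.45% of genes with 200 to 2000 counts. A count may thus not be an independent molecule, while the interval and the floor above treat it as one. Whether both reads of a pair were counted is not given in the sources used here.

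The other interferon ligands were as rare. Of 21 ligand genes sought, 8 were listed and none passed the filter. Ifna1, Ifna2, Ifna5 and Ifnab had 2, 2, 6 and 6 counts in M1 replicate 1 and none elsewhere, and Ifna13 had 2 in M1 replicate 2 alone. These interferon alpha genes share sequence, with 12.2% to 67.4% of their 50-base words found in transcripts of other genes, and their counts are uncertain. Ifnb1 shared no such word. Ifng, the IFN-γ gene, had 6 counts in M1 replicate 2 and none in the other libraries. The protein had been added to both M1 cultures, and 19.9% of the words of Ifng are shared with Gm49751. The keratinocyte interferon gene Ifnk had 4 counts in M0 replicate 1 and 3 in M1 replicate 1. Siglech, a marker of plasmacytoid dendritic cells, which are known as strong interferon producers, had 129 and 91 counts in M0 and 0 and 5 in M1. Of its list of 10 markers 7 were tested, of which 2 were higher and 4 lower, beside 24.2% and 24.0% of all tested genes. The summed level of the list was 374 to 385 CPM in M0 and 1278 to 1416 CPM in M1, where most of it was the interferon-stimulated gene Bst2. Klk1 had no count, and the part of these cells in the ligand counts was not tested.

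Of the wider class II cytokine receptor family, 11 genes were listed and 7 tested, 4 of which are the chains above. Il10rb, the shared chain of the interleukin-10 and interferon lambda receptors, had 142 ± 2.51 CPM in M0, had 122 ± 1.51 CPM in M1 and did not pass (log2 fold change -0.21, adjusted p = 0.0865, edgeR). With upper-quartile factors or library totals it passed as lower (-0.32 and -0.47). Il10ra, the ligand-binding chain of the interleukin-10 receptor, did not pass either, at 168 ± 7.51 and 187 ± 7.05 CPM. Il20rb was higher, with 0.693 ± 0.167 CPM in M0 against 3.69 ± 1.304 CPM in M1, and its call was lost when M0 replicate 1 was left out (adjusted p = 0.0713, edgeR). Ifnlr1, the specific chain of the interferon lambda receptor, had 6 to 10 counts per library and was not tested. With the 4 chains included, the family counted 4 genes higher, 1 lower and 2 not passed, beside 24.2% higher and 24.0% lower over all tested genes. Its median log2 fold change of 0.87 is the value of Ifnar2 itself, against -0.016 over all tested genes. The counts and the median thus mostly restate the chains above.

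Ifnar2, Il10rb, Ifnar1 and Ifngr2 follow each other in this order on chromosome 16, over 191 kb from the start of the first to the end of the last, with the lncRNA gene A930006K02Rik and the pseudogenes Gm7856 and Gm7860 between them. Of 12 other listed genes that start within 250 kb of any of them, 9 were tested, 3 were higher, 1 was lower and 5 did not pass. Over all tested genes, 24.2% were higher and 24.0% lower. The endocytic scaffold gene Itsn1 rose from 100.4 ± 8.32 to 222 ± 21.4 CPM (log2 fold change 1.14), Cryzl1 from 34.3 ± 0.316 to 52.8 ± 1.5 CPM (0.62) and the purine synthesis gene Gart from 104 ± 6.58 to 152 ± 11.2 CPM (0.55). The call of Gart was lost without M0 replicate 1 (adjusted p = 0.0716, edgeR), as was that of Dnajc28, which was lower at -1.23 (0.123). Tmem50b, the gene next to Ifngr2, had 97.9 ± 7.47 CPM in M0 and 113 ± 7.23 CPM in M1 and did not pass. Il10rb lies between Ifnar2 and Ifnar1 and did not share their rise. Around Ifngr1 only Il22ra2 and Il20ra were listed, with at most 5 counts in a library. Around Ifnb1 6 genes were listed, of which 2 were tested and both were lower, as were 24.0% of all tested genes.

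**Figure D3:**
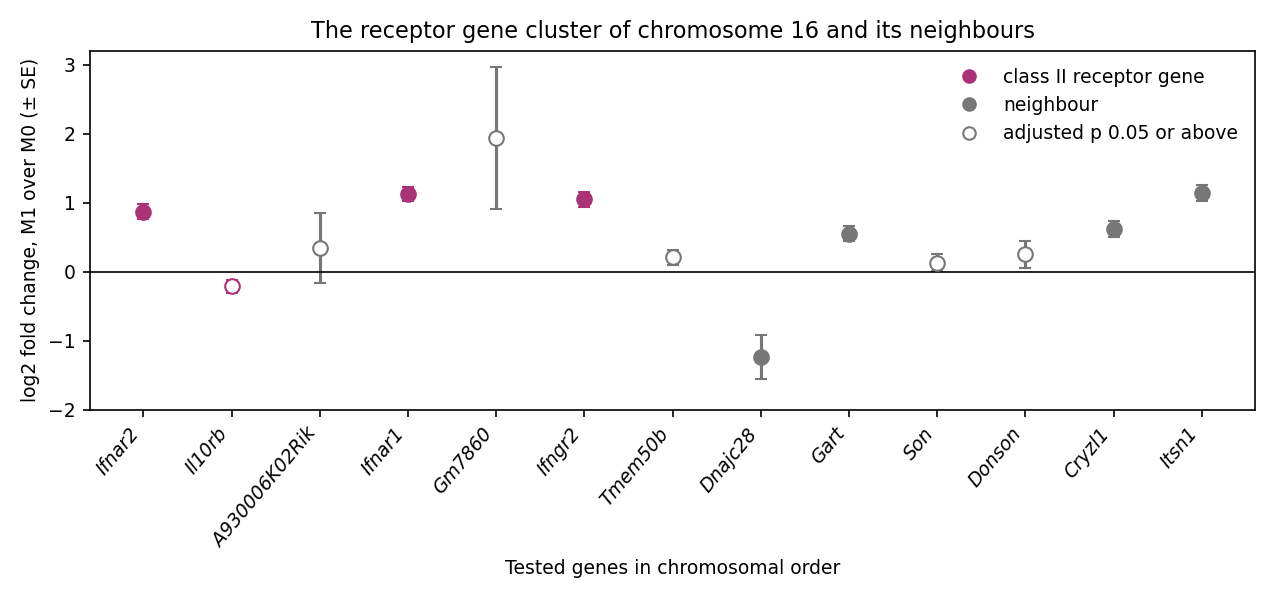
Log2 fold change, M1 over M0, of the tested genes around the receptor cluster of chromosome 16, in chromosomal order with the SE of the fit. Purple marks class II receptor genes and grey their neighbours, and open points have an adjusted p of 0.05 or above. Ifnar2, Ifnar1 and Ifngr2 lie at 0.87 to 1.12 and Il10rb between them at -0.21.

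The kinases and factors that the receptors use were mostly higher in M1. Of 7 tested genes 6 rose, 0 fell and 1 did not pass, with a median log2 fold change of 1.38. The shares over all tested genes were 24.2% higher and 24.0% lower. Jak1, whose kinase serves Ifngr1 and Ifnar2, had 272 ± 7.40 CPM in M0, had 283 ± 19.9 CPM in M1 and did not pass (adjusted p = 0.67, edgeR), and its sign is negative with upper-quartile factors and library totals and without M1 replicate 2. Jak2, whose kinase serves Ifngr2, rose from 62.5 ± 0.785 to 558 ± 25.6 CPM (log2 fold change 3.16). Tyk2, whose kinase serves Ifnar1, rose from 80.45 ± 5.62 to 159 ± 37.8 CPM (0.98, a call lost without M0 replicate 2 at an adjusted p of 0.0642, edgeR). Stat2 rose by 3.17 and Irf9 by 1.38 on the log2 scale.

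Genes listed here under receptor restraint and turnover moved less evenly. Of 12 tested, 8 were higher, 1 was lower and 3 did not pass, beside 24.2% higher and 24.0% lower over all tested genes. The median log2 fold change was 0.60. With library totals 6 were higher and 2 lower. Ptpn11 and Ptpn2, among the higher genes at 0.25 and 0.55, did not pass with library totals. The call of Ptpn11 was also lost with upper-quartile factors, no low-count filter, the replicate block and DESeq2. Usp18, whose protein blocks JAK1 at IFNAR2, rose by 6.52, Socs1 by 5.25 and Socs3 by 5.21 on the log2 scale. The ubiquitin ligase gene Rnf114 rose from 79.8 ± 2.07 to 288 ± 3.09 CPM (1.85), and an action of its protein on these receptors was not tested. Btrc, part of the ligase known to mark IFNAR1 for breakdown, did not pass at 15.0 ± 0.782 and 17.6 ± 2.52 CPM (adjusted p = 0.305, edgeR). Prkd2, a kinase gene of the same step, stood at 10.9 ± 0.734 and 6.52 ± 2.87 CPM and did not pass (adjusted p = 0.0541, edgeR), though it did in 7 of 12 alternatives. The lower gene was Pias1, from 104 ± 7.31 to 76.3 ± 3.49 CPM (-0.45), which no longer passed when M0 replicate 1 (adjusted p = 0.108, edgeR) or M0 replicate 2 (0.0519) was left out.

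The path from LPS to Ifnb1 held calls in both directions. Of 20 tested genes 9 were higher, 4 lower and 7 did not pass, with a median log2 fold change of 0.15. Over all tested genes 24.2% were higher and 24.0% lower, so calls in both directions are not particular to this list. With library totals 7 were higher and 6 lower. Irf7 rose by 6.53 and the kinase gene Ikbke from 90.4 ± 4.28 to 537 ± 27.4 CPM (2.57), with the LPS co-receptor gene Cd14 at 1.84 and Tank at 1.36. Tlr4 itself was lower, from 161 ± 5.83 to 71.2 ± 1.404 CPM (-1.18, adjusted p = 2.5e-06, edgeR), a fall close in size to that of Ifngr1. Among the factors known to assemble on the Ifnb1 enhancer printed above, Jun fell from 109 ± 9.26 to 45.0 ± 7.38 CPM (-1.27) and Nfkb1 rose from 200.4 ± 6.66 to 482 ± 56.5 CPM (1.27). Irf3, Rela, Atf2, Crebbp and Hmga1 did not pass. Atf2 passed as lower with library totals (-0.43), and Crebbp with upper-quartile factors (-0.37) and library totals (-0.52). Ep300 passed as lower (-0.37), a call lost without M0 replicate 1, without M0 replicate 2 and without M1 replicate 1 (adjusted p = 0.387, 0.179 and 0.277, edgeR).

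Targets of both receptors were higher in M1 while the ligand transcripts were near 0. All 25 tested type I interferon-stimulated genes rose, with a median log2 fold change of 4.97. Among all tested genes 24.2% were higher and 24.0% lower. The exonuclease gene Isg20 rose from 1.43 ± 1.34 to 167.5 ± 22.9 CPM (6.95). Of 19 tested IFN-γ target genes 18 rose and 1 fell, with a median of 4.53, and the GTPase gene Gbp5 rose from 2.58 ± 1.27 to 559.5 ± 16.7 CPM (7.79). The gene that fell was Ciita, the class II transactivator, from 13.0 ± 0.0726 to 1.446 ± 0.218 CPM (-3.17). Irf7, Usp18 and Socs1 each stand in more than 1 list, and many of these targets are known to answer both receptors and LPS, so the lists do not separate the inputs.

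**Figure D4:**
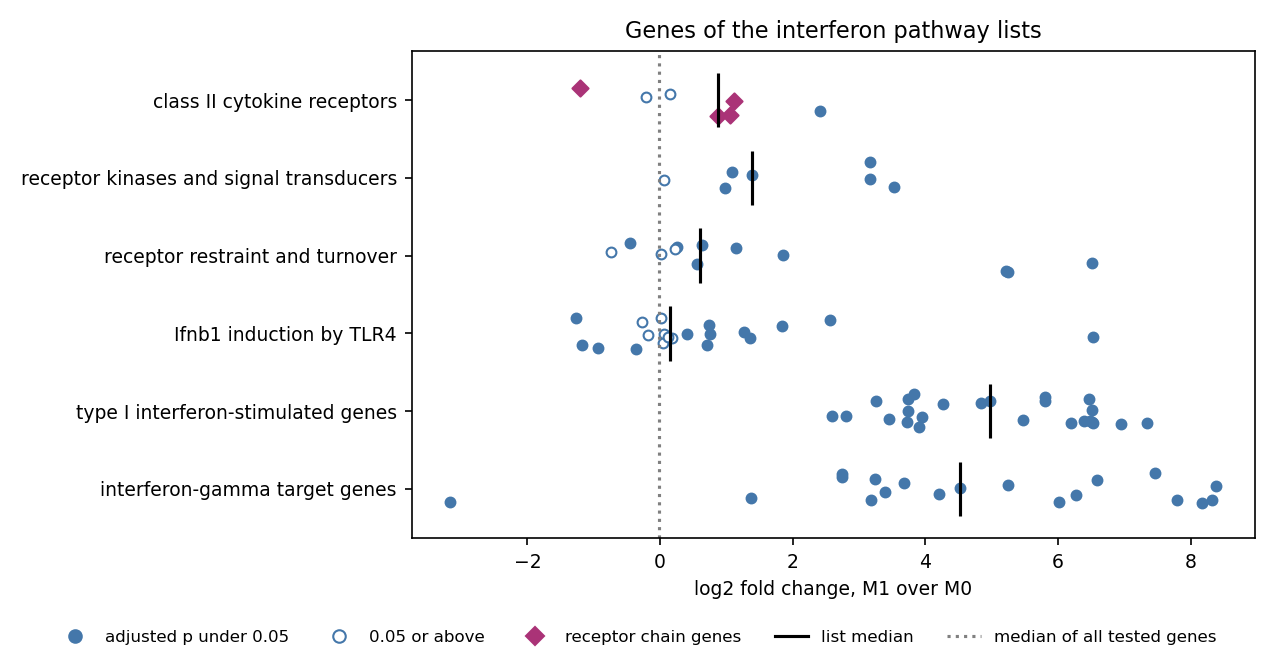
Log2 fold change, M1 over M0, of each tested gene of 6 lists. Filled points have an adjusted p under 0.05 and open points do not, diamonds are the receptor chains, bars the list medians and the dotted line the median of all tested genes. The target lists centre at 4.97 and 4.53, the receptor family, which includes the receptor chains, at 0.87, and Ifngr1 is the diamond below 0.

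For each receptor chain, the 3 tested genes with the most similar profile were found by the distance between centred log2 CPM values over the 4 libraries, among genes of like mean level. With 4 libraries this describes little beyond the group difference. For Ifngr1 they were Smim14, the lysophosphatidylserine lipase gene Abhd12 and the membrane protein gene Stom (distances 0.0622 to 0.0778 among 2705 genes). For Ifngr2 they were the lysyl hydroxylase gene Plod3, Pitpnm1 and Xylt2 (0.0137 to 0.0691 among 1834). For Ifnar1 they were the exchange factor gene Vav1, the ubiquitin-activating enzyme gene Uba1 and Csf3r, the receptor gene for granulocyte colony-stimulating factor (0.0732 to 0.0858 among 1362). For Ifnar2 they were the small GTPase gene Rap2b, Ostc and Gm9774 (0.0496 to 0.0792 among 3163).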

How the data were processed

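RNA of wild-type mouse bone marrow macrophages was measured in 4 libraries, 2 M0 and 2 M1. Per the labels' protocols, DNase-treated total RNA was cleared of ribosomal RNA. The authors deposited raw counts for each gene symbol. The submitters' processing notes name featureCounts, Subread 2.0.1, the build mm10, DESeq2 1.30.1 and R 4.0.4. The annotation and strand setting are not given in the sources used here.

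Low counts were removed by filterByExpr (edgeR 4.0.16) at a minimum of 10 and a total of at least 15, so that 12966 genes stayed and 5290 did not. The groups were compared by estimateDisp, glmQLFit and glmQLFTest in R 4.3.3 (group only) with a threshold of 0.05. SE is the absolute log2 fold change over the root of the F statistic. CPM used library totals times TMM factors. Lengths and coordinates come from GENCODE M21 (GRCm38, the assembly of mm10), since RefSeq exon lengths were not used here. Promoter windows and neighbour distances come from RefSeq GRCm38.p6. The fit was also run on counts simulated from its own estimates of level and spread. That run cannot show how the fit handles the spread of the real libraries.

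Members, lists and tests were chosen with earlier results of these data known. Named genes are the members, the receptor, ligand and kinase lists, up to 4 called genes of each other list by size and up to 2 called in the opposite direction, chromosome 16 neighbours, and 3 nearest profiles per member. Markers, Btrc, Prkd2, Ptpn2, Ptpn11, Nfkb1, Ep300 and the factors of the Ifnb1 enhancer that did not pass were named after their values were seen. Some genes of the lists are counted but not reported here by name. Alternatives were other scaling factors, no or stricter filter, DESeq2 1.42.0, limma-voom (limma 3.58.1), a replicate block, each library left out and other length measures, of which the RefSeq-linked length was chosen after seeing the data.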

Additional observations from a re-analysis of the deposited data

How the results depend on the processing

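Ifngr1, Ifngr2, Ifnar1 and Ifnar2 kept their direction and call in all 12 alternative fits, with log2 fold changes of -1.45 to -1.15, 0.80 to 1.17, 0.87 to 1.21 and 0.61 to 0.98. Library totals shifted the median of all tested genes by -0.252 and upper-quartile factors by -0.104 (log2), and library totals gave 2024 genes higher and 4776 lower. Without a library in turn, 1691 to 2966 genes were higher and 1463 to 2855 lower, the lowest counts without M0 replicate 1 (without M0 replicate 2, 1832 and 1549). The receptor family had 2 genes lower in place of 1 with upper-quartile factors and library totals. The restraint list had 2 lower in place of 1 with upper-quartile factors, library totals, no filter, the stricter filter, the replicate block and limma-voom, and 0 to 2 without a library. Causes were not tested. Same-numbered libraries are not tied by the labels, and their deviations from the group means did not go together (correlation -0.0757 across 12966 genes). With the replicate block 2957 genes were higher and 2974 lower, the members' calls did not change, and the restraint list was the only list whose counts moved by over 1.5 times. Depth limits Ifnb1 and the other ligands, with at most 6 counts in a library.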
